A study of Homo sapiens with 18 samples.

Results

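The integrated stress response and amino acid genes described here are a list of 36 named genes that are known targets, regulators or effectors of the transcription factor ATF4, out of 19775 genes with a probe set of their own on the array. They were chosen by name, and each gene was read by the probe set with its highest mean log2(intensity + 1) over all arrays. Of the 36 genes, 35 had a probe set named for them alone; GPT2 had none and was not analysed here. The glycine transporter SLC6A9 lay between 3.02 and 22.0 intensity units, with a mean under the background level of 14.3 units used as the limit for testing, so 34 genes were tested. That limit is the median, over all probe sets, of the mean log2(intensity + 1), and not a measured limit of detection. It applies to a gene's mean over all arrays, and is what background level means below.

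The data come from 18 oligonucleotide arrays (Affymetrix HG-U133 Plus 2.0), which read the 3' part of transcripts with short probes. The cells were MCF10A, an immortalised, nonmalignant human mammary epithelial line, and 2 lines made from it. MCF10A-CT was the control in standard medium, MC26 came from MCF10A cells kept for a long time with BMP2, a growth factor of the TGF-beta family, and IL6, an inflammatory cytokine, and M1B26 came from MCF10A cells first sorted for the BMP receptor BMPR1B, exposed to the same factors and, per the study's methods, expanded from soft-agar clones. The medium of MC26 and M1B26 held 10 ng/ml IL6, and that of MCF10A-CT held neither factor. For BMP2 the labels of MC26 and M1B26 disagree, naming 5 ng/ml beside each sample and 10 ng/ml in the growth protocol. Each line was measured as unsorted cells, as CD10- cells and as CD10+ cells, CD10 being the surface peptidase encoded by MME. Each of the 9 groups held 2 arrays labelled biological replicate 1 and 2, and the labels do not say whether these were separate cultures, so p-values measure the spread between these arrays. All groups share the MCF10A background, horse serum, insulin, hydrocortisone, cholera toxin and EGF. The unsorted cells were frozen after trypsin and washing, and the others were stained for CD10 and sorted.

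In the integrated stress response, kinases that sense amino acid shortage, unfolded protein, haem shortage or double-stranded RNA phosphorylate the translation factor eIF2, which lowers general protein synthesis while the mRNA of ATF4 is translated more. ATF4 then pairs with C/EBP proteins and switches on genes for amino acid uptake, for serine, glycine and asparagine synthesis, for glutathione precursors and for feedback and cell death. Much of ATF4's control is exerted on its protein, so its mRNA is not a measure of its activity. Epithelial cells in culture use this pathway when the amino acids in the medium run low.

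ATF4 and C/EBP dimers bind a composite element whose core is written TGATGNAA. RefSeq promoter windows (GRCh38.p14, 250 bases before to 50 bases after each transcription start) were given for 30 of the 36 genes and not for PSPH, SHMT2, ALDH1L2, SLC7A11, NUPR1 and GPT2. The core, searched on both strands, was in a window of 9 of these 30 genes (30%), against 4.46% of 27305 genes overall. The 9 were ASNS, ATF3, CEBPG, CHAC1, HERPUD1, JDP2, SLC1A4, SLC1A5 and SLC3A2. Some genes have several windows, and by window the core was in 9 of the 49 windows of the 30 genes, against 3.62% of 35116 windows overall. The cyclic AMP response element TGACGTCA was in a window of PPP1R15A alone, 3.33% of the 30 genes against 2.25% of all genes. Of the 12 genes with a window among the 15 that were high in replicate 1 of unsorted MC26 and M1B26 (described below), 3 held the core (ASNS, CHAC1 and SLC1A4), and no match was found in the windows of PHGDH, TRIB3, GDF15, CBS, PCK2, PSAT1, CTH, STC2 and VLDLR. SLC7A11 and SLC7A5, which passed the test threshold in 4 and 3 of the comparisons below, had no window and no match in a window, respectively. Below are 40 bases around the core of 4 of the 9 genes that hold it. ASNS and CHAC1 are shown for the differences between replicates of unsorted cells, and ATF3 and SLC1A5 for those between lines and on sorting. Each is written 5' to 3' on the gene's strand, with the core in capitals. The core begins 68 bases before the start of ASNS (minus strand, chr7:97872453-97872492), 209 before that of CHAC1 (plus strand, chr15:40953246-40953285, core on the opposite strand), 191 before that of ATF3 (plus strand, chr1:212565200-212565239) and 97 before that of SLC1A5 (minus strand, chr19:46784888-46784927).
ASNS: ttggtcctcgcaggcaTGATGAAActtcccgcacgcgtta
CHAC1: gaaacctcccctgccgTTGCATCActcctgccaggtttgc
ATF3: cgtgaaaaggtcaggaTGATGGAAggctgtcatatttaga
SLC1A5: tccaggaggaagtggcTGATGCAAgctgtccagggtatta

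Several facts of the whole series touch these genes. Every array had the same median intensity, 16.7 units, and replicate arrays correlated at 0.949 to 0.979 over the tested genes. The log2 ratio of the 3' to the 5' probe sets of ACTB, a measure of RNA integrity and amplification, was 0.637 to 1.10 on the 6 unsorted arrays and 0.154 to 0.419 on the 12 sorted arrays, so sorting, handling and this ratio cannot be told apart. The 7 epithelial markers measured were above background on all arrays, while PTPRC and LYZ of leukocytes, VWF and CDH5 of endothelium and COL3A1 of fibroblasts were under it on all 18. Other markers of those cell types were above background on all 18, namely CD14 of leukocytes at 129 to 445 units, PECAM1 of endothelium at 29.9 to 51.7 and COL1A1 of fibroblasts at 44.7 to 317. The fibroblast genes LUM and DCN reached 593 and 5162 units. MME, on a log2 scale centred on its mean over all arrays, was -2.63 to 0.32 on the 6 CD10- arrays and 0.10 to 4.79 on the 6 CD10+ arrays, and higher in CD10+ cells within each line. The mean of 12 G2-M genes, on a log2 scale centred for each gene on all arrays, was -1.49 to -0.99 on the 4 sorted MCF10A-CT arrays and -0.24 to 0.74 on the other 14. In such bulk samples, fewer cells of a type and less RNA per cell cannot be told apart.

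The mean of the 34 tested genes, centred for each gene, was high on 2 arrays. It reached 1.12 in replicate 1 of unsorted MC26 and 0.93 in replicate 1 of unsorted M1B26, against -0.33 and -0.28 in replicate 2 of the same groups. Unsorted MCF10A-CT gave 0.32 and -0.14, and the 4 sorted MCF10A-CT arrays lay between 0.03 and 0.27. The SD between replicates was thus 1.03 in unsorted MC26, 0.86 in unsorted M1B26 and 0.32 in unsorted MCF10A-CT, and 0.02 to 0.31 in the sorted groups. Replicate 1 of unsorted MC26 was the highest of the 18 arrays for 18 of the 34 genes, while 7.26% of all tested genes had their highest value there. Replicate 2 of MCF10A-CT CD10- cells was the highest for another 8, against 11.7% of all genes.

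**Figure D1:**
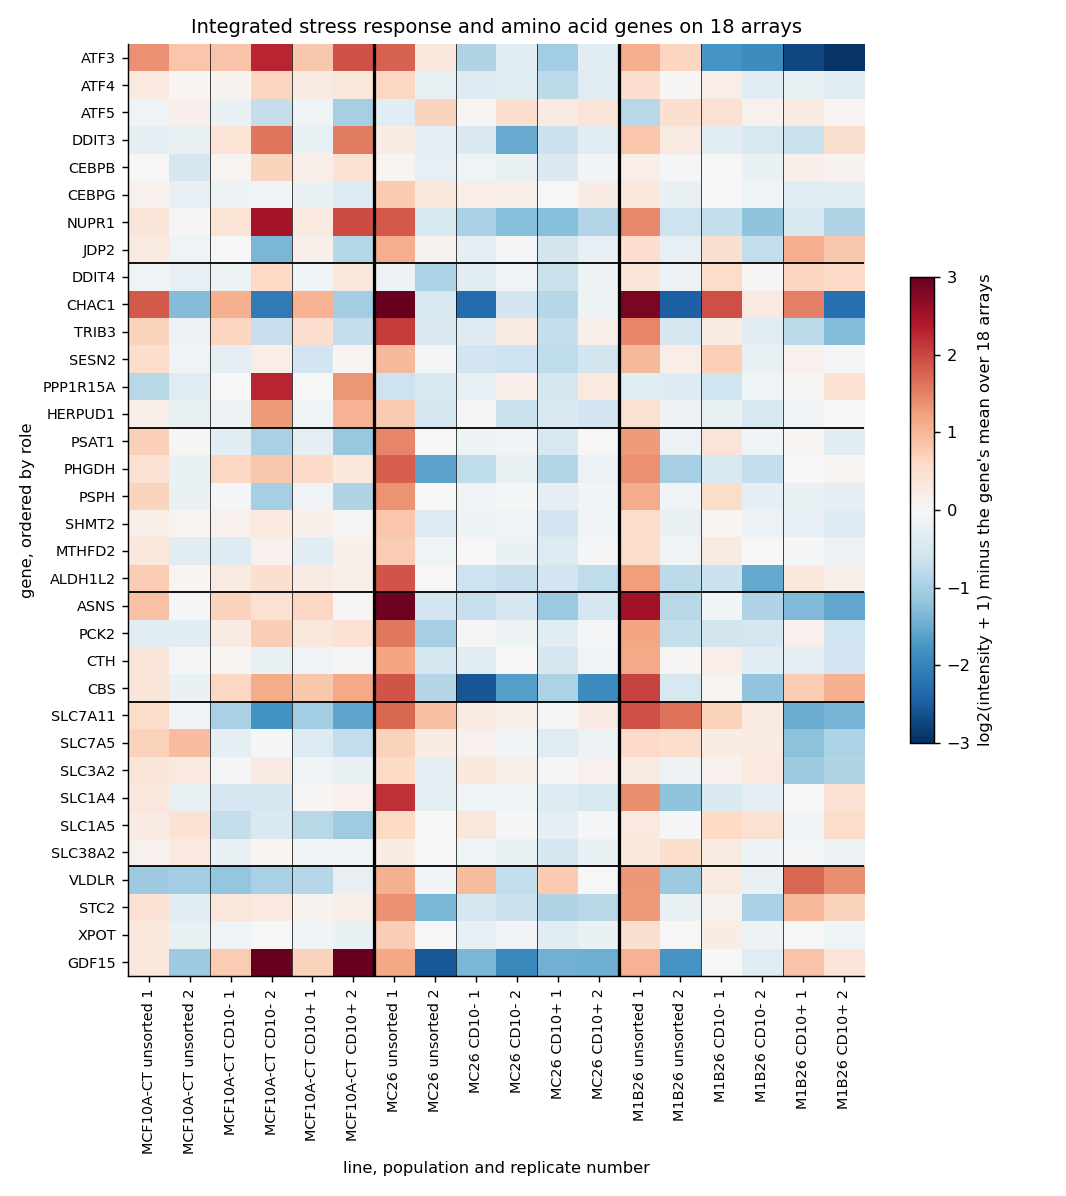
Log2 level of each of the 34 tested genes on each of the 18 arrays, centred on the gene's own mean, with genes in rows by role and arrays in columns by group and replicate; colours stop at 3 log2 units either way. Replicate 1 of unsorted MC26 and M1B26 stands out in most rows of the synthesis enzymes, and replicate 2 of sorted MCF10A-CT stands out for GDF15, NUPR1, DDIT3 and PPP1R15A.

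The amino acid synthesis enzymes carried much of the difference between unsorted replicates. ASNS, which makes asparagine, read 3909 and 343 units in replicates 1 and 2 of unsorted MC26, 2970 and 287 in unsorted M1B26, and 940 and 503 in unsorted MCF10A-CT. On the 12 sorted arrays it stayed between 174 and 825. The 2 high arrays therefore lay above all others and their replicates did not. PHGDH, the entry step of serine synthesis, read 1150 and 108 units in unsorted MC26 and 853 and 165 in unsorted M1B26, with 444 and 286 in unsorted MCF10A-CT. CBS, which joins homocysteine to serine and can share probe sequence with its copy CBSL, read 129 and 18.4 units in unsorted MC26 and 144 and 24.5 in unsorted M1B26. The same order of replicates held for PCK2, the mitochondrial enzyme that makes phosphoenolpyruvate, at 493 and 82.2 units in MC26 and 377 and 99.1 in M1B26.

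Among the feedback genes, TRIB3 and CHAC1 were ordered in the same way. TRIB3, a pseudokinase that restrains ATF4, read 4004 and 686 units in unsorted MC26, 2572 and 654 in unsorted M1B26 and 1485 and 823 in unsorted MCF10A-CT. CHAC1, which degrades glutathione, read 132 and 10.6 units in unsorted MC26, 113 and 1.90 in unsorted M1B26 and 55.8 and 5.48 in unsorted MCF10A-CT. Replicate 2 of CHAC1 was thus under the background level in all 3 lines and its ratios are imprecise. GDF15, a secreted stress cytokine, read 566 and 42.5 units in unsorted MC26 and 528 and 73.5 in unsorted M1B26. ATF4 itself differed less, with 6537 and 3624 units in unsorted MC26 and 5967 and 4355 in unsorted M1B26.

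Counted over the list, replicate 1 was above replicate 2 for 26 genes (76.5%) in unsorted MCF10A-CT, 32 (94.1%) in unsorted MC26 and 32 (94.1%) in unsorted M1B26. Among all tested genes the shares were 64.4%, 52% and 38%. The median log2 difference between replicates was 0.45, 1.19 and 0.76 for the list and 0.14, 0.02 and -0.11 for all tested genes. Replicate 1 was at least 2-fold above replicate 2 for 2 genes in MCF10A-CT (CHAC1 and GDF15; background over all tested genes 2.94%), 19 in MC26 (5.56%) and 15 in M1B26 (3.14%). The same 15 genes passed that fold in both MC26 and M1B26 (44.1% of the list, background 1.38%), namely ASNS, PSAT1, PHGDH, PSPH, ALDH1L2, SLC1A4, CHAC1, TRIB3, VLDLR, STC2, NUPR1, PCK2, CTH, CBS and GDF15. By role these were all 4 tested other amino acid and carbon enzymes, 4 of 6 serine, glycine and folate-linked enzymes, 3 of 4 secreted, receptor and tRNA export genes, 2 of 6 feedback genes, 1 of 6 transporters and 1 of 8 transcription factors. ATF5 alone went the other way in both lines by 2-fold or more (background 1.23%), with 101 and 206 units in MC26 and 71.9 and 181 in M1B26. In all 3 lines together, 26 genes were higher in replicate 1 (background 19%). With 1 array on each side these are descriptions of arrays, with no test.

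**Figure D2:**
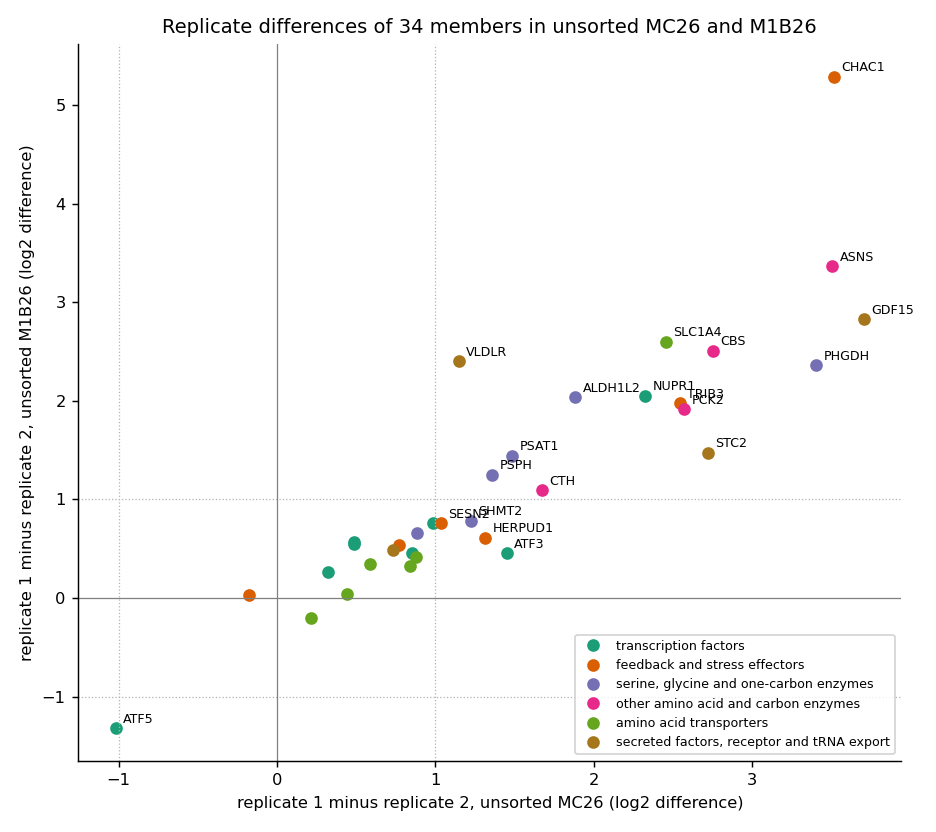
Log2 of replicate 1 minus replicate 2 for each gene in unsorted MC26 (horizontal) and unsorted M1B26 (vertical), one point for each of the 34 tested genes, coloured by role. CHAC1, ASNS and GDF15 lie far up and to the right, at 3.52 and 5.29, 3.51 and 3.37, and 3.71 and 2.83, while ATF5 lies at -1.02 and -1.32.

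Neighbouring gene groups showed this to different degrees. Of 17 tested cytosolic aminoacyl-tRNA synthetases, which charge tRNAs and include ATF4 targets, 15 were higher in replicate 1 of unsorted MC26 (median 0.55) and 12 in M1B26 (median 0.31). Of 18 chaperones and other genes of the endoplasmic reticulum unfolded protein response, 14 were higher in MC26 (median 0.20) and 9 in M1B26 (median -0.01). The eIF2 kinases and eIF2 and eIF2B subunits had 5 and 2 of 13 higher. Other amino acid transport and synthesis genes had 9 and 7 of 16 higher, with medians of 0.19 and -0.11. Among all tested genes 52% and 38% were higher. None of the 12 G2-M genes was higher in replicate 1 of MC26 or M1B26, with medians of -0.87 and -0.71, and the part of that in the values above was not tested.

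**Figure D3:**
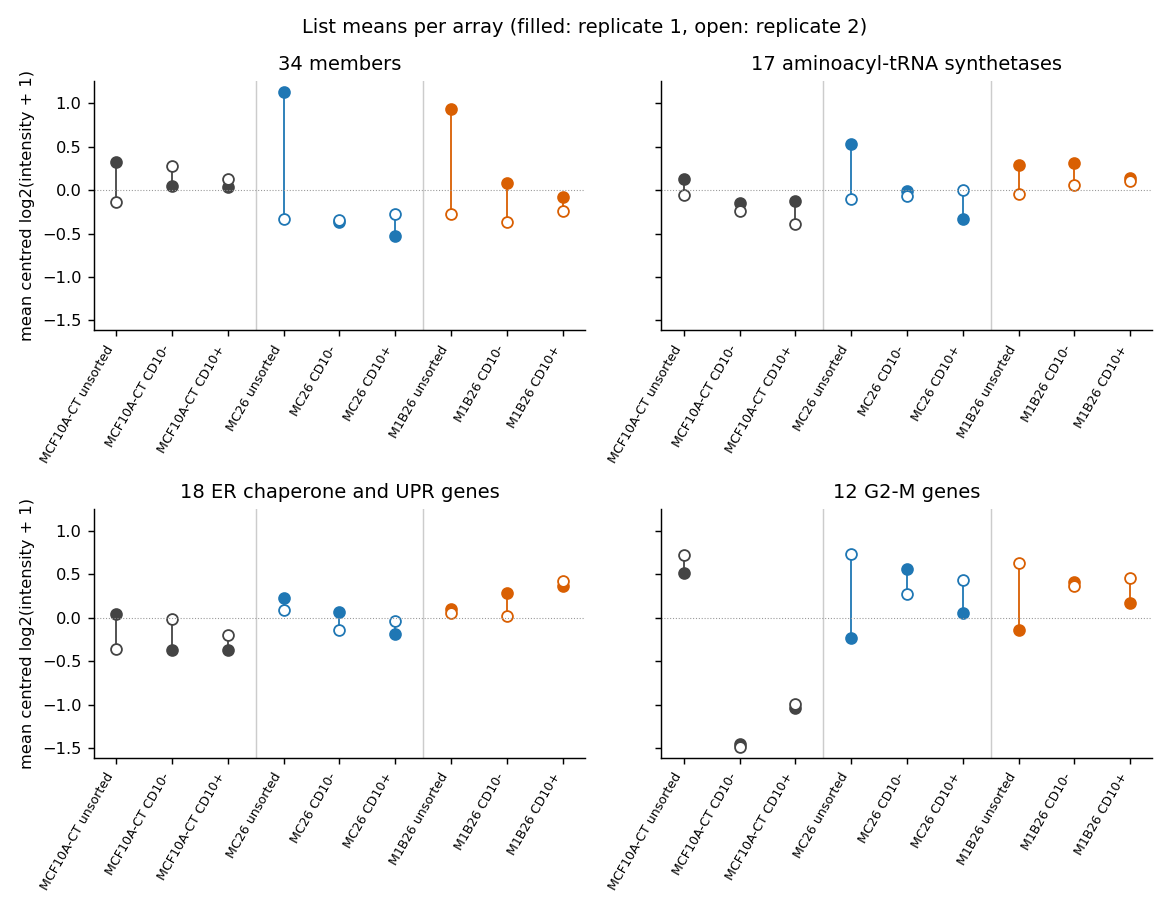
Mean centred log2 level on each of the 18 arrays (filled points replicate 1, open points replicate 2) of the 34 genes, 17 tRNA synthetases, 18 chaperones and 12 G2-M genes. The list is at 1.12 and 0.93 on replicate 1 of unsorted MC26 and M1B26, and the G2-M genes are between -1.49 and -0.99 on the 4 sorted MCF10A-CT arrays.

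Sorted MCF10A-CT cells separated by replicate too, and GDF15, NUPR1, CHAC1 and TRIB3 are also among the 15 genes above. GDF15 read 432 and 3040 units in replicates 1 and 2 of CD10- cells and 411 and 2209 in CD10+ cells. DDIT3, the cell death factor CHOP, read 77.9 and 178 units, then 49.8 and 173. PPP1R15A, which recruits the phosphatase of eIF2, read 103 and 502 units, then 103 and 260. Replicate 2 was the higher in every such pair. It was at least 2-fold higher in both populations for 6 genes, the others being ATF3, NUPR1 and HERPUD1 (17.6% of the list, background 1.46%). CHAC1 and TRIB3 went the other way by at least 2-fold (background 3.48%), TRIB3 with 1441 and 571 units in CD10- cells and 1313 and 560 in CD10+ cells. No gene of the list differed 2-fold in both sorted populations of MC26 (background 1.66%), and CHAC1 alone did in M1B26 (background 1.21%). None of 9 immediate early and heat shock genes was higher in replicate 1 of sorted MCF10A-CT, with medians of -0.64 in CD10- and -0.60 in CD10+ cells, and their part in these values was not tested.

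MC26 cells, compared with MCF10A-CT over the 3 populations, had less mRNA of 4 stress response transcription factors and more of the cystine transporter SLC7A11. In limma's moderated test on log2(intensity + 1), with Benjamini-Hochberg adjustment over 12166 genes, 6 genes were lower (17.6% of the list, background 11.5%) and 4 higher (11.8%, background 19.7%). The median over the list was -0.16 and that over all tested genes 0.08. Quantile normalization gave 2 higher and 6 lower. The transcription factors that fell were ATF3, DDIT3, NUPR1 and ATF4. ATF3, an early stress factor, ranged from 163 to 454 units in the 6 MCF10A-CT arrays (median 203) and from 44.5 to 318 in the 6 MC26 arrays (median 73.4), a log2 difference of -1.43 ± 0.29 (SE, n = 6 and 6; limma adjusted p = 0.00268). NUPR1, a small chromatin protein, fell by 1.44 ± 0.45 (limma adjusted p = 0.0241), DDIT3 by 0.97 ± 0.32 (adjusted p = 0.0307) and ATF4 by 0.53 ± 0.15 (adjusted p = 0.0169). GDF15 fell by 2.50 ± 0.65 (limma adjusted p = 0.0105) and CBS by 1.65 ± 0.47 (adjusted p = 0.0158); with values under background raised to it, the CBS difference was -1.24. SLC7A11, which imports cystine for glutathione, rose by 1.37 ± 0.19 (limma adjusted p = 2.12e-04) and VLDLR, a lipoprotein receptor, by 1.22 ± 0.40 (adjusted p = 0.0327), or by 0.76 with values under background raised to it. The other 2 that rose were SLC1A5, the glutamine carrier, and CEBPG, a partner of ATF4. The values were -0.52 for ASNS (adjusted p = 0.498), 0.06 for SLC7A5, -0.13 for CHAC1 and 0.13 for TRIB3, none of which passed. The arrays of the lines overlapped for every gene named. The fit treated the 6 arrays of a line as separate. CD10- and CD10+ arrays with the same replicate number were correlated in their deviations, from 0.184 in M1B26 to 0.635 in MCF10A-CT. The p-values here, and in the other comparisons between lines or of sorted with unsorted cells, may therefore be too small.

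Most of these calls rested on the sorted arrays. Among unsorted arrays no gene of the list passed (background 0.321%; 3 at unadjusted p under 0.05, as did 7.99% of all genes), and ATF3 differed by -0.05 ± 0.51. Among CD10- arrays 6 passed (background 20%), with ATF3 at -2.18, DDIT3 at -1.97, NUPR1 at -2.59, GDF15 at -3.81 and SLC7A11 at 1.61. CBS, the sixth, was under background on both CD10- arrays of MC26 and so at least 4.23-fold lower than in MCF10A-CT. Among CD10+ arrays 3 passed (background 13.5%), with ATF3 at -2.05, ATF4 at -0.87 and SLC7A11 at 1.42. The unsorted value had the opposite sign for NUPR1 (0.48), CBS (0.42), DDIT3 (0.22), ATF4 (0.02) and SLC1A5 (-0.04). Sorted MCF10A-CT cells, the reference for the sorted values, were also those with low G2-M genes and with replicate 2 high in GDF15, NUPR1, DDIT3 and ATF3, whose part in the result was not tested. Without replicate 1 of unsorted MC26 and M1B26, 18 genes passed, 14 of them lower (background 31.4%), with ASNS at -1.10, PHGDH at -1.30 and STC2 at -1.11. Those 2 arrays were the highest for the list and were picked after the data were seen. Replicate 1 of unsorted MCF10A-CT, also the higher of its pair, was kept. More lower genes thus follow from the choice of arrays and add no support. The count was 6 without replicate 1 of unsorted MCF10A-CT (29.3% of all genes passed), replicate 2 of MCF10A-CT CD10- (22.4%) or CD10+ cells (21.9%), or replicate 1 of MC26 CD10+ cells (27.7%).

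M1B26 cells, compared with MCF10A-CT, had less ATF3 and NUPR1 mRNA and more of VLDLR, SLC7A11 and SLC1A5; this comparison uses the same control arrays as the one before. In M1B26, 2 genes were lower (5.88%, background 7.6%) and 3 higher (8.82%, background 27%), and the median was -0.04 for the list and 0.19 for all tested genes. With arrays centred on the tested genes 3 were higher and 5 lower, and with quantile normalization 3 and 6. ATF3 ranged from 11.2 to 198 units in M1B26, and its difference from MCF10A-CT was -2.61 ± 0.29 (SE, n = 6 and 6; limma adjusted p = 2.8e-05), or -2.53 with its values under background raised to it. NUPR1 fell by 1.34 ± 0.45 (limma adjusted p = 0.0311). VLDLR rose by 1.46 ± 0.40 (limma adjusted p = 0.0122), or by 1.07 on raised values, SLC7A11 by 1.09 ± 0.19 (adjusted p = 7.85e-04) and SLC1A5 by 0.69 ± 0.15 (adjusted p = 0.00358). ATF3 has other probe sets above background that gave -0.77 and -0.06 in MC26 and -1.34 and 0.14 in M1B26, so its size and, in M1B26, its direction depend on the probe set, and the probe set used may bind related transcripts. Those of SLC7A11 gave 1.47 and 1.58 in MC26 and 1.17 and 1.21 in M1B26.

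By population, 1 gene passed in unsorted M1B26 (background 0.674%), SLC7A11 at 1.56 ± 0.33. In CD10- cells 4 passed (background 26.5%), with ATF3 at -3.40, NUPR1 at -2.42, SLC7A11 at 1.85 and SLC1A5 at 1.10. In CD10+ cells 5 passed (background 26.5%), with SLC3A2 at -0.81, SLC7A5 at -0.52, SLC1A5 at 1.18 and VLDLR at 2.11 (1.89 on raised values), and SLC7A11 at -0.14 did not. ATF3, the fifth, was under background on both CD10+ arrays of M1B26 by the probe set used. By that probe set it was at least 15.6-fold lower than in MCF10A-CT. Its other probe sets, given above over populations, differed from each other in direction. The mean of the epithelial markers was lower in these CD10+ cells too, as given below. NUPR1 (0.21) and SLC1A5 (-0.21) had the opposite sign among unsorted arrays. Without replicate 1 of unsorted MC26 and M1B26, 14 passed, 10 of them lower (background 34.5%), and without that of M1B26 alone 8 (33.6% of all genes). As in MC26, the arrays left out were picked for being high, so these counts add no support. M1B26 and MC26 differed from each other in 2 genes of the list (5.88%, background 8.1%), ATF3 at -1.18 ± 0.29 (limma adjusted p = 0.0211; 0.20 by another of its probe sets) and DDIT4, an inhibitor of mTORC1, at 0.73 ± 0.17 (adjusted p = 0.0144). Under quantile normalization or centring on the tested genes none was higher and 3 were lower.

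**Figure D4:**
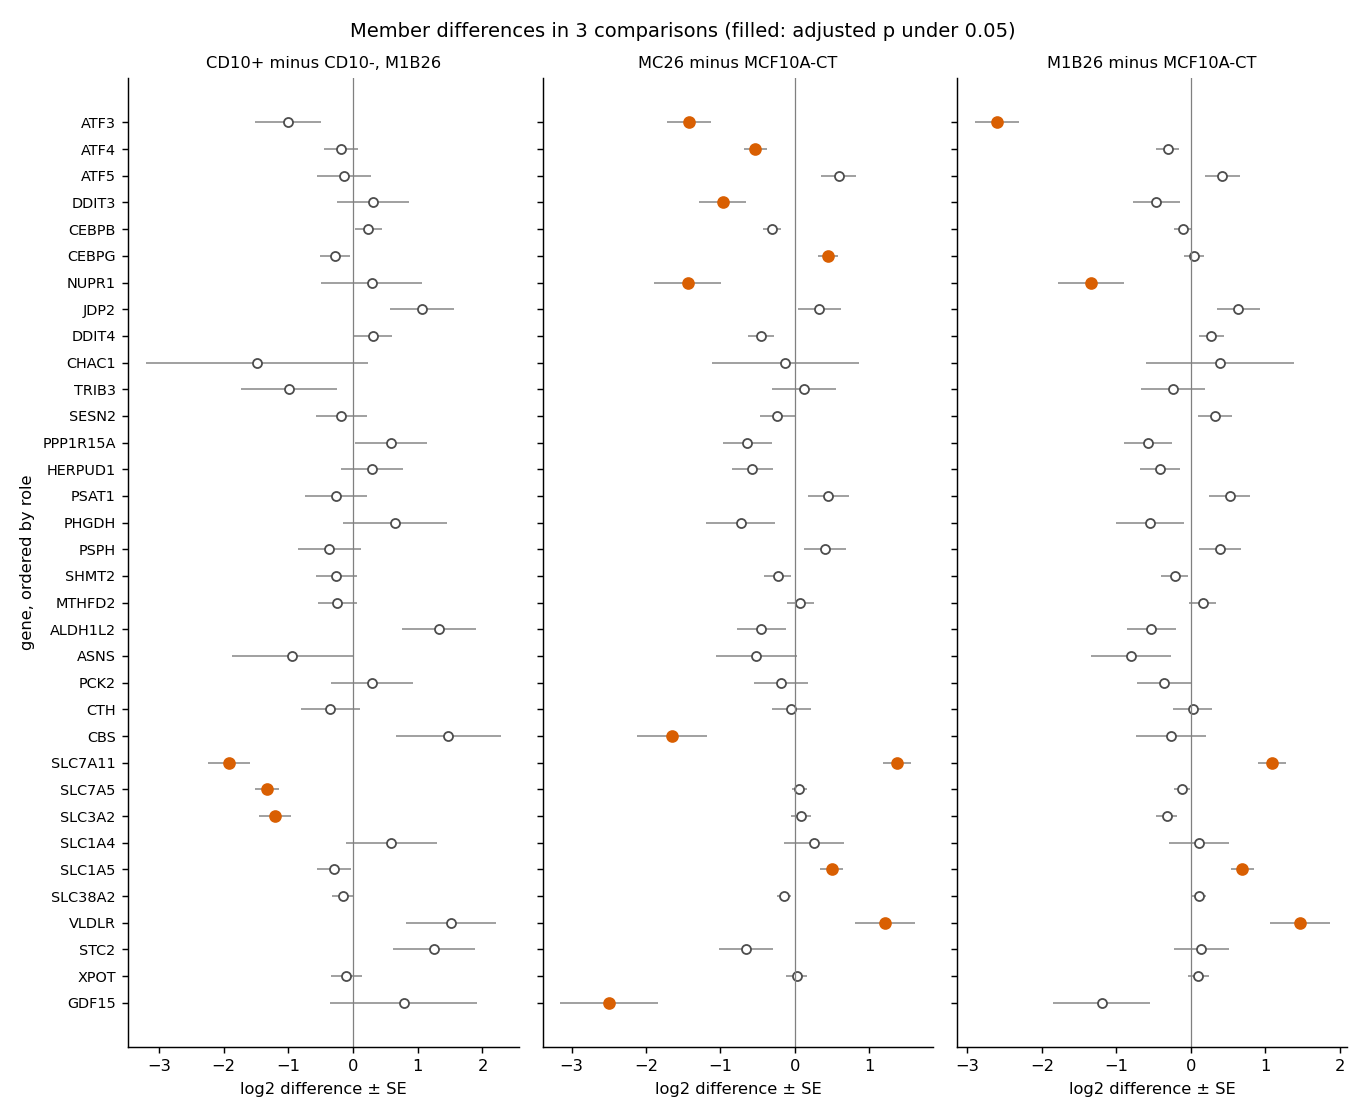
Fitted log2 difference with its SE of each tested gene, by role, for CD10+ minus CD10- in M1B26, MC26 minus MCF10A-CT and M1B26 minus MCF10A-CT; filled points passed the adjusted p threshold of 0.05. ATF3 is at -1.43 and -2.61 and SLC7A11 at 1.37 and 1.09 in MC26 and M1B26 against MCF10A-CT.

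CD10+ cells of M1B26 had less mRNA of 3 amino acid transporter subunits than CD10- cells of that line. SLC7A11 read 1006 and 749 units in the CD10- arrays and 222 and 236 in the CD10+ arrays. SLC7A5, the large neutral amino acid carrier that exchanges leucine for glutamine, read 4041 and 4118, then 1471 and 1791. SLC3A2, the heavy chain that both carriers need at the membrane, read 1291 and 1439, then 551 and 630. The CD10- and CD10+ arrays did not overlap for these genes, which with 2 arrays on each side adds no support to the test that follows. The log2 differences were -1.92 ± 0.33 for SLC7A11 (SE, n = 2 and 2; limma adjusted p = 0.00186), -1.33 ± 0.18 for SLC7A5 (adjusted p = 2.95e-04) and -1.21 ± 0.24 for SLC3A2 (adjusted p = 0.00546). They were the only members called, all lower (8.82% of the list, background 2.74%). Other SLC7A11 probe sets gave -2.004 and -1.53. The mean of the 2 fibroblast markers that passed the testing limit (COL1A1 and DCN), of 6 on the list, on a centred log2 scale, was -0.09 ± 0.08 (SD, n = 2) in these CD10- cells and 2.47 ± 0.20 (SD, n = 2) in the CD10+ cells, with COL3A1 under background in both. DCN differed by 4.64 between these populations, so the rise of this mean was mostly that of DCN and less that of COL1A1. The mean of the mammary epithelial markers was 0.44 ± 0.11 (SD, n = 2) in the CD10- cells and -1.27 ± 0.05 (SD, n = 2) in the CD10+ cells, against 0.07 in CD10+ cells of MCF10A-CT. EPCAM differed by -4.09, CDH1 by -3.64, ITGA6 by -2.28 and KRT18 by -0.90 between CD10+ and CD10- cells of M1B26. KRT8, of the same epithelial list, went the other way, at 0.94 (limma adjusted p = 0.0287). The part of either marker list in the result was not tested.

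In MCF10A-CT and MC26 no gene of the list passed between CD10+ and CD10- cells, nor did any of the 12166 genes (background 0% in MCF10A-CT and 0% in MC26). At unadjusted p under 0.05 there were 1 and 0 genes of the list, and 166 and 98 of all genes. MME, the sort marker, differed by 2.31 in MCF10A-CT and by 2.46 in MC26 and did not pass either. The test can therefore miss differences of that size in these lines. SLC7A11 read 318 and 180 units in CD10- and 309 and 208 in CD10+ MCF10A-CT cells, and 759 and 707, then 615 and 747, in MC26, so these groups overlapped. SLC7A5 also passed in the average over lines, at -0.67 ± 0.11 (limma adjusted p = 0.00419; background 0.682%). The CD10 difference of SLC7A11 in M1B26 minus that in MCF10A-CT was -1.997 ± 0.46 (limma adjusted p = 0.0455; background 0.715%), and it no longer passed when any of 14 single arrays was left out.

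Deviations of CD10- and CD10+ arrays with the same replicate number correlated at 0.635 in MCF10A-CT, 0.362 in MC26 and only 0.184 in M1B26. Between lines such correlations lay between -0.200 and 0.459. The pair was also fitted as a block on the sorted arrays. This gave 14 genes in M1B26 (background 21.1%), 8 in the average (background 9.21%) and 9 in the difference between M1B26 and MCF10A-CT (background 11.6%), and none in MCF10A-CT or MC26 (2 and 0 at unadjusted p under 0.05, as did 5.04% and 3.52% of all genes). In M1B26 ASNS (-0.94), TRIB3 (-0.99) and ATF3 (-1.001, but 0.49 and 0.76 by its other probe sets) were then lower beside the transporters, while ALDH1L2 (1.33), a mitochondrial folate enzyme, STC2 (1.25), a secreted glycoprotein, VLDLR (1.52), CBS (1.47), JDP2 (1.07), GDF15 (0.78), PHGDH (0.65) and PPP1R15A (0.59) were higher. This fit had 3 residual degrees of freedom and pooled the variance fully across genes.

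**Figure D5:**
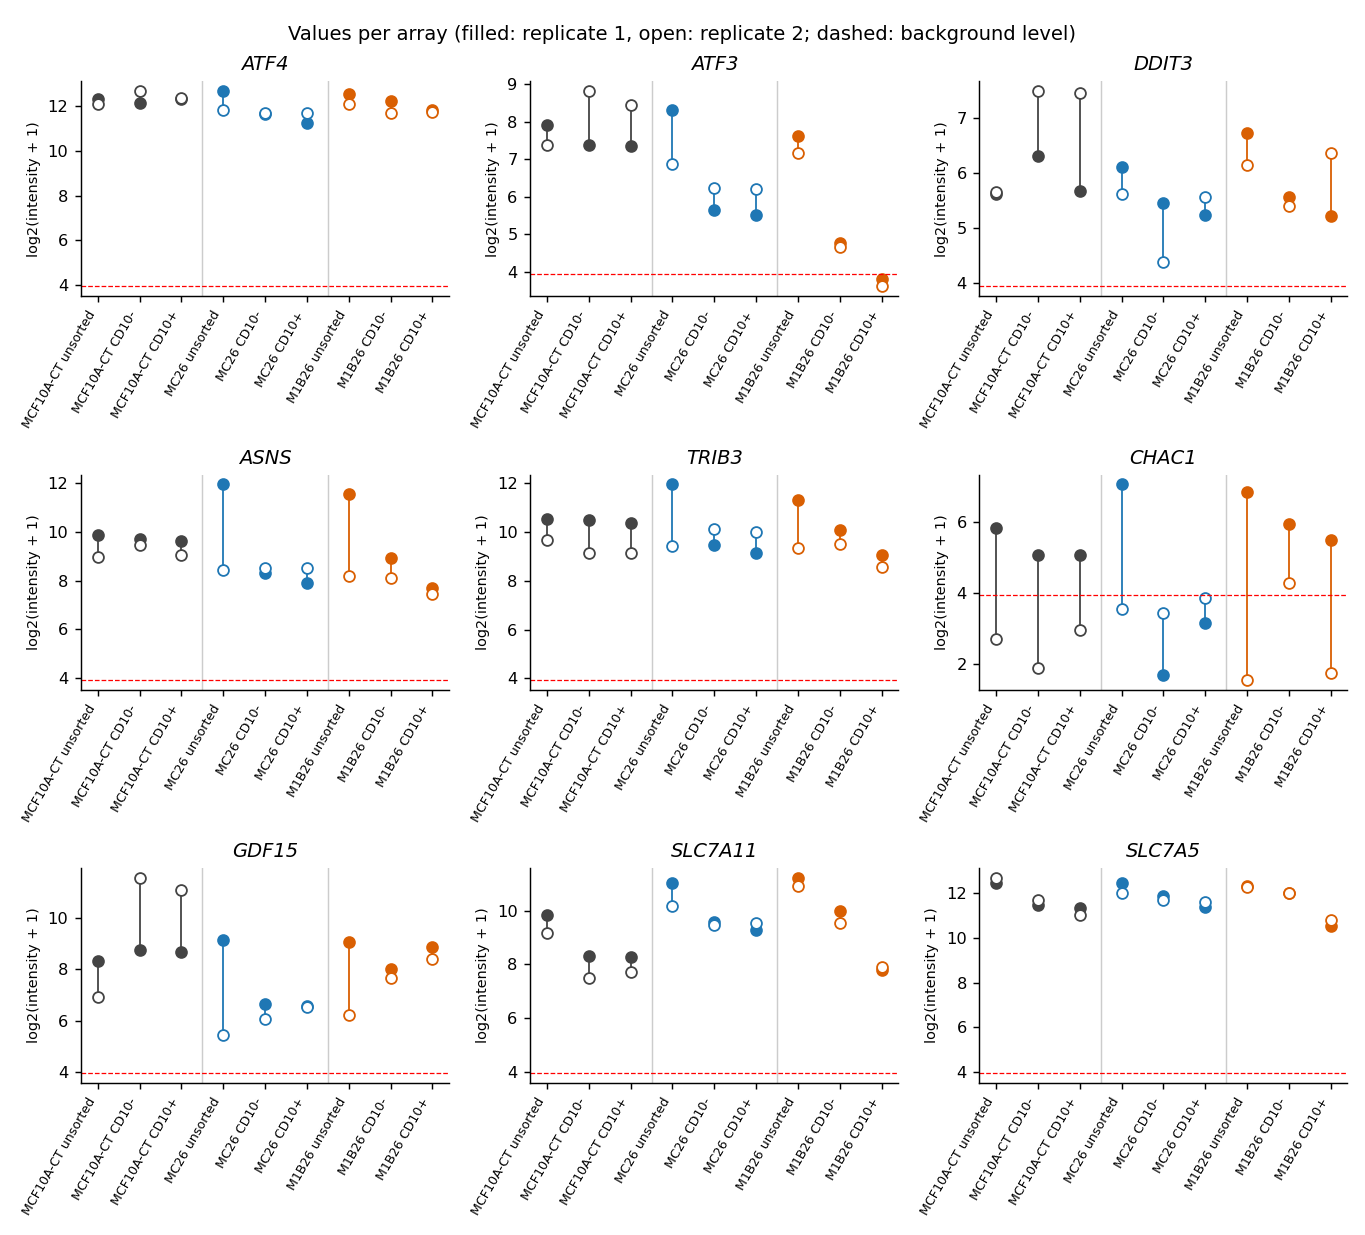
Log2(intensity + 1) of 9 genes on each of the 18 arrays by line and population, with replicate 1 filled, replicate 2 open and the background level dashed. In intensity units, SLC7A11 in M1B26 is at 1006 and 749 units in CD10- and 222 and 236 in CD10+ cells, and ASNS is at 3909 and 2970 units on replicate 1 of unsorted MC26 and M1B26.

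Sorted cells, averaged over lines, had less mRNA of 3 transporters than unsorted cells. SLC7A11 lay between 579 and 2406 units on the 6 unsorted arrays and between 180 and 1006 on the 12 sorted ones, and its difference was -1.66 ± 0.16 (SE; limma adjusted p = 2.4e-05). SLC7A5 lay between 4108 and 6572 units on unsorted arrays and between 1471 and 4118 on sorted ones, and differed by -0.92 ± 0.09 (limma adjusted p = 2.4e-05). Both ranges overlapped, that of SLC7A5 on 1 array. SLC38A2, a carrier of small neutral amino acids, fell by 0.37 ± 0.08 (limma adjusted p = 0.00812). The other members that passed were ATF3 at -1.51 ± 0.26 (adjusted p = 0.00147), PSAT1, an aminotransferase of serine synthesis, at -0.84 ± 0.24 (adjusted p = 0.0301), and SESN2, a leucine sensor, at -0.63 ± 0.20 (adjusted p = 0.0444), in all 6 lower (17.6% of the list, background 8.44%). The count was 17 without replicate 2 of unsorted MC26, when 12.8% of all genes passed. Freezing, staining, sorting and the ACTB ratio went with the groups here and cannot be told apart.

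By line, ATF3 did not move alike. It read 239 and 166 units in unsorted MCF10A-CT and 163 to 454 in its sorted cells, a difference of 0.36, and 198 and 144 units in unsorted M1B26 against 11.2 to 26.3 in its sorted cells, a difference of -3.19, or -3.08 on raised values. The interaction, a comparison added after the data were seen, was -3.56 ± 0.62 for ATF3 (limma adjusted p = 0.00492) and 1.35 ± 0.32 for SLC1A5 (adjusted p = 0.0166), and these were the members that passed (5.88%, background 11.9%). Quantile normalization gave 1 higher and 3 lower. Neither passed without replicate 1 of unsorted M1B26. For MC26 against MCF10A-CT no gene of the list passed (background 6.07%; 9 at unadjusted p under 0.05, as did 23.1% of all genes), with ATF3 at -2.06 (adjusted p = 0.064). Its other probe sets gave -0.21 and -0.99 for sorted minus unsorted cells on average, and -1.44 and -0.23 for the interaction in M1B26.

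Counts of other genes of the pathway are to be read against the shares of all genes that were higher, 19.7% in MC26 and 27% in M1B26. In MC26 against MCF10A-CT, 3 of 13 eIF2 kinases and subunits were higher and none lower, with EIF2B1 at 0.90, EIF2S1 at 0.77 and EIF2B3 at 0.70. The tRNA synthetases had 3 of 17 higher, among them FARSA at 0.72, and the endoplasmic reticulum chaperones 7 of 18, among them DNAJB11 at 0.84 and SDF2L1 at 0.74. In M1B26 the chaperones had 12 of 18 higher, with CALR at 0.87 and EDEM1 at 0.85. Of 16 other amino acid transport and synthesis genes, 3 were higher and 5 lower in MC26 (11.5% of all genes were lower), with GLDC of glycine cleavage at -2.69 and SLC7A2, a cationic amino acid carrier, at -1.60. All 12 G2-M genes were higher in both lines over the 3 populations, but their centred mean was higher only among sorted cells. It was -1.47 in CD10- and -1.01 in CD10+ cells of MCF10A-CT. The sorted groups of the other lines lay between 0.24 and 0.42. Among unsorted groups MCF10A-CT had the highest mean, at 0.62 ± 0.14 (SD, n = 2). MC26 had 0.25 ± 0.69 and M1B26 0.25 ± 0.54 there, so the arrays overlapped. The part of the G2-M genes in the values above was not tested.

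The remaining enzymes and secreted factors spread mainly with the replicate of unsorted cells. PSAT1, next to PHGDH in serine synthesis, read 5877 and 2099 units in unsorted MC26 and 5121 and 1881 in unsorted M1B26. PSPH, the last step of that route, read 1124 and 438, then 956 and 401. The mitochondrial enzymes SHMT2 and MTHFD2, which pass carbon from serine to folate, differed less. SHMT2 read 2928 and 1254 units in unsorted MC26 and 2408 and 1399 in unsorted M1B26, and MTHFD2 5318 and 2886, then 4639 and 2940. ALDH1L2 read 1270 and 344 units, then 814 and 198, and CTH, which makes cysteine from cystathionine, 160 and 49.3, then 155 and 72.1. STC2 read 535 and 80.2 units, then 502 and 180. The higher value of each pair was that of replicate 1.

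Several other transcription factors and transporters had narrower ranges. CEBPB, a C/EBP partner of ATF4, lay between 3821 and 8649 units over all 18 arrays, and its highest value was in replicate 2 of MCF10A-CT CD10- cells. CEBPG lay between 243 and 555 units and peaked in replicate 1 of unsorted MC26. SLC38A2 lay between 3882 and 8005 units and XPOT between 1801 and 3776. SLC1A4, a carrier of serine, alanine and cysteine, reached 205 units in replicate 1 of unsorted MC26 and 118 in that of M1B26, with 18.7 to 60.1 on the other 16 arrays. VLDLR was under background in 5 of 6 MCF10A-CT arrays, which limits its ratios, as the ATF3 and CBS values under background limit theirs. The probe sets of ATF3, ATF5, DDIT4, ASNS, PSAT1, SHMT2, SLC7A5, SLC3A2, SLC1A4, SLC38A2, SLC6A9, SESN2, VLDLR, NUPR1, GDF15 and HERPUD1 carry name suffixes of designs that may bind related transcripts.

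Over the 8 comparisons other than differences of differences, 16 of the 34 tested genes (47.1%) passed in at least 1 and 18 in none, against 54.5% of all tested genes that passed in at least 1. ATF3 and SLC7A11 passed in 4 and SLC7A5 in 3. Those that passed in none were the transcription factors ATF5, CEBPB and JDP2, the feedback genes CHAC1, TRIB3, PPP1R15A and HERPUD1, the enzymes ASNS, PHGDH, PSPH, SHMT2, MTHFD2, ALDH1L2, PCK2 and CTH, and SLC1A4, STC2 and XPOT, which exports tRNA from the nucleus. CHAC1, with its wide replicate spread, differed by as much as -1.49 without passing.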

How the data were processed

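The deposited values are linear probe set intensities that the authors made with MAS5 in Affymetrix Expression Console, per the submitters' processing notes, which give no versions; the study's methods name RMA, which equal medians and unlogged values do not show. Intensities were used as log2(intensity + 1). Probe sets with several gene names (1801) or none (11721) were left out, and 12166 genes with a mean of at least 3.94 (log2) were tested. Group means of 9 groups were fitted with limma 3.58.1 (R 4.3.3) with an intensity trend and an adjusted p threshold of 0.05; figures used matplotlib 3.10.9. The fit was tested on simulated data. The median SE was 0.171 between lines and 0.296 between CD10 populations of a line, and 2 arrays a group limit the precision. Members and lists were chosen with earlier results of these data known. In each comparison all members past the threshold are named where at most 8 passed, otherwise the 8 with the largest difference. ATF4, ATF3, DDIT3, ASNS, TRIB3, CHAC1, SLC7A11 and SLC7A5 are described throughout. Apart from cell type markers, at most 3 genes of other lists are named. Members beyond the rule, and those shown for replicate differences, were chosen after their values were seen. CD10- and CD10+ deviations from group means correlated at 0.184 to 0.635 within a replicate number in the 3 lines; those of unsorted with sorted arrays at -0.015 to 0.122, and those between lines at -0.200 to 0.459, the highest for unsorted MC26 with unsorted M1B26. Alternatives varied the pseudocount, filter, scaling, probe set, block, trend and arrays; those leaving out replicate 1 of unsorted lines, using both sorted populations only, raising values under background to it, and the interactions were chosen after seeing the data.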

Additional observations from a re-analysis of the deposited data

Results flagged for a closer look

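Differences between lines under the same contrast, each tested as an interaction, stood out for 3 results. On the log2 scale, the CD10+ minus CD10- difference of SLC7A11 in M1B26 less that in MCF10A-CT was -1.997 (limma adjusted p = 0.0455), and it no longer passed when any of 14 single arrays was left out. The sorted minus unsorted difference of ATF3 in M1B26 less that in MCF10A-CT was -3.56 (limma adjusted p = 0.00492). The same quantity for SLC1A5 was 1.35 (limma adjusted p = 0.0166). These 2 genes were 5.88% of the list, against 11.9% of all tested genes that passed. The sorting comparison was added after the data were seen, and the other ATF3 probe sets gave smaller differences, as stated above.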

How the results depend on the processing

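Counts here are of members past the threshold, and of 335 alternative counts 255 were within 1.5 times of the reported one and 80 were not. For MC26 against MCF10A-CT the count was 10; unsorted arrays alone gave 0, CD10- arrays 6, CD10+ arrays 3, and leaving out replicate 1 of unsorted MC26 and M1B26 gave 18. For M1B26 against MCF10A-CT it was 5, and 9 with quantile normalization, 8 with centred arrays, 3 without probe sets that may bind related transcripts, 1 in unsorted arrays, 8 in both sorted populations, 14 without replicate 1 of unsorted MC26 and M1B26, and 10 without that of all 3 lines. For M1B26 against MC26 it was 2, and 1 with a pseudocount of 16 or the highest probe set on each array, 0 without related probe sets, in unsorted or in CD10- arrays, and 5 in CD10+ arrays. For CD10 in M1B26 it was 3, and 1 without related probe sets, 9 with that line's sorted arrays alone, and 5 without replicate 1 of unsorted MC26 and M1B26 or of all 3 lines. For the CD10 average it was 1, and 0 without related probe sets or over MCF10A-CT and MC26 only, and 2 without those same unsorted arrays. For the CD10 difference between M1B26 and MCF10A-CT it was 1, and 0 with no filter or no intensity trend, and 2 with quantile normalization or centred arrays. For sorted against unsorted cells it was 6, and 1 without related probe sets, 3 for CD10- against unsorted arrays, 0 in MC26 and 3 in M1B26. For the sorting difference of M1B26 against MCF10A-CT it was 2, and 4 with quantile normalization, 1 without related probe sets and 1 without replicate 1 of all 3 unsorted lines.

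With the replicate number as a block on all arrays, the CD10 average gave 3, sorted against unsorted cells 12, and the sorting differences 4 in MC26 and 4 in M1B26 against MCF10A-CT. The block on sorted arrays alone gave 14 for CD10 in M1B26, 8 for the average and 9 for the difference. The block moved no other count by over 1.5 times.

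Leaving out single arrays gave 6 to 14 for MC26 and 4 to 8 for M1B26 against MCF10A-CT, 0 to 4 for M1B26 against MC26, 0 to 0 for CD10 in MCF10A-CT and in MC26, 2 to 3 for CD10 in M1B26, 1 to 2 for the average, 0 to 1 for the CD10 difference, 4 to 17 for sorted against unsorted cells, and 0 to 11 and 0 to 6 for the sorting differences of MC26 and M1B26. The high counts of 17 and 11 came without replicate 2 of unsorted MC26, and the low count for M1B26 against MC26 came without replicate 1 of M1B26 CD10- cells.

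Of the values of single genes under these alternatives, 769 kept direction and call, 162 lost the call and 9 reversed. In MC26 against MCF10A-CT, unsorted arrays alone gave ATF4 0.024, CBS 0.42, DDIT3 0.22, NUPR1 0.48 and SLC1A5 -0.041. In M1B26 they gave NUPR1 0.21 and SLC1A5 -0.21, and CD10+ arrays alone gave SLC7A11 -0.14. ATF3 in sorted against unsorted MCF10A-CT was 0.36. Beyond these, another ATF3 probe set gave 0.14 for M1B26 against MCF10A-CT and 0.20 against MC26. The cause was not tested. Signals near background, as for CHAC1, VLDLR, ATF3 and CBS, limit those genes' values.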
